A study of Gallus gallus with 24 samples.

Results

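The comparison was the tissue difference in the culture response of the embryonic chick heart: how the change from freshly isolated to cultured sinoatrial node (SAN) differed from the same change in atria. It rests on 16 of the 24 RNA sequencing libraries of the study, 4 in each of 4 groups, and was computed for the 12422 rows of the deposited table that carry a gene symbol, of 12423 rows in all. The groups were freshly isolated SAN, freshly isolated atria, and SAN and atria cultured for 14 h with water as vehicle in DMEM/F12 medium with 15% foetal bovine serum, 1% penicillin-streptomycin and amphotericin B. All tissue came from chick embryos at Hamburger Hamilton stage 30 (embryonic day 6), with no genetic modification named in the labels. Each library was made from a pool of 5 tissue preparations, so p-values measure the spread between such pools. The 8 libraries of tissue cultured with the RhoA activator CN03 entered only the estimate of each gene's spread.

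The SAN is the pacemaker of the heart. Its myocytes depolarise spontaneously, conduct slowly and express a transcription factor programme, with SHOX2 and ISL1 among its members, that holds back the working myocardial genes. Atrial myocytes contract, propagate the impulse and secrete natriuretic peptides. Both tissues also hold endocardial, epicardial, mesenchymal and blood cells. An explant leaves circulation, stretch and its neighbours behind and meets serum, and genes sensitive to such inputs often move within hours.

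The values are log2 expression as deposited. The culture response of a gene in a tissue is its log2 fold change (log2FC), vehicle over t0, and the difference in response is the log2FC in SAN minus the log2FC in atria, so that a positive difference means a more positive response in SAN. Within a group, libraries correlated across genes with r from 0.977 to 0.991. The labels fitted their tissue: SHOX2, a regulator of pacemaker fate, ranged from 6.77 to 8.26 in fresh SAN and from 0.45 to 2.06 in fresh atria, and HCN4, the main pacemaker channel, from 6.09 to 6.29 and from 2.29 to 3.23. TNNT2, the cardiac troponin T of all heart myocytes, was high in both tissues and had a difference in response of -0.04 (adjusted p = 0.937). The differences in response of SHOX2 (-0.30) and HCN4 (0.18) did not pass the test, with adjusted p-values of 0.68 and 0.747 from limma.

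Culture moved the tissues unequally at 595 of the 12422 genes, which is 4.79% of those tested, at an adjusted p under 0.05 and an absolute difference above 1 (limma, 4 libraries a group). The response was more positive in SAN at 294 genes (2.37%) and more negative at 301 (2.42%). Of the 595 genes, 66 moved in SAN only (0.531% of all genes), 209 in atria only (1.68%) and 84 in opposite directions (0.676%). Another 188 moved in the same direction by different amounts, 160 of them further in atria and 28 further in SAN, and the remaining 48 met none of these definitions. A gene was taken as moved in 1 tissue only if its log2FC there passed 1 at an adjusted p under 0.05 and the other tissue's adjusted p was 0.05 or above. The opposite and same direction classes needed an adjusted p under 0.05 in both tissues, with no limit on the log2FC of either. At a log2FC past 1 and an adjusted p under 0.05, culture moved 1690 genes in SAN (13.6%), 995 up (8.01%) and 695 down (5.59%). At the same limits it moved 2380 genes in atria (19.2%), 1260 up (10.1%) and 1120 down (9.02%). Without the limit on the difference 1613 genes passed, and limma's treat test of a difference beyond 1 left 63 genes. WNT11 (1.00) and SLCO3A1 (1.00) lay just inside the limit, and MYH1B (0.999) and PIK3IP1 (-0.999) just outside.

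**Figure D1:**
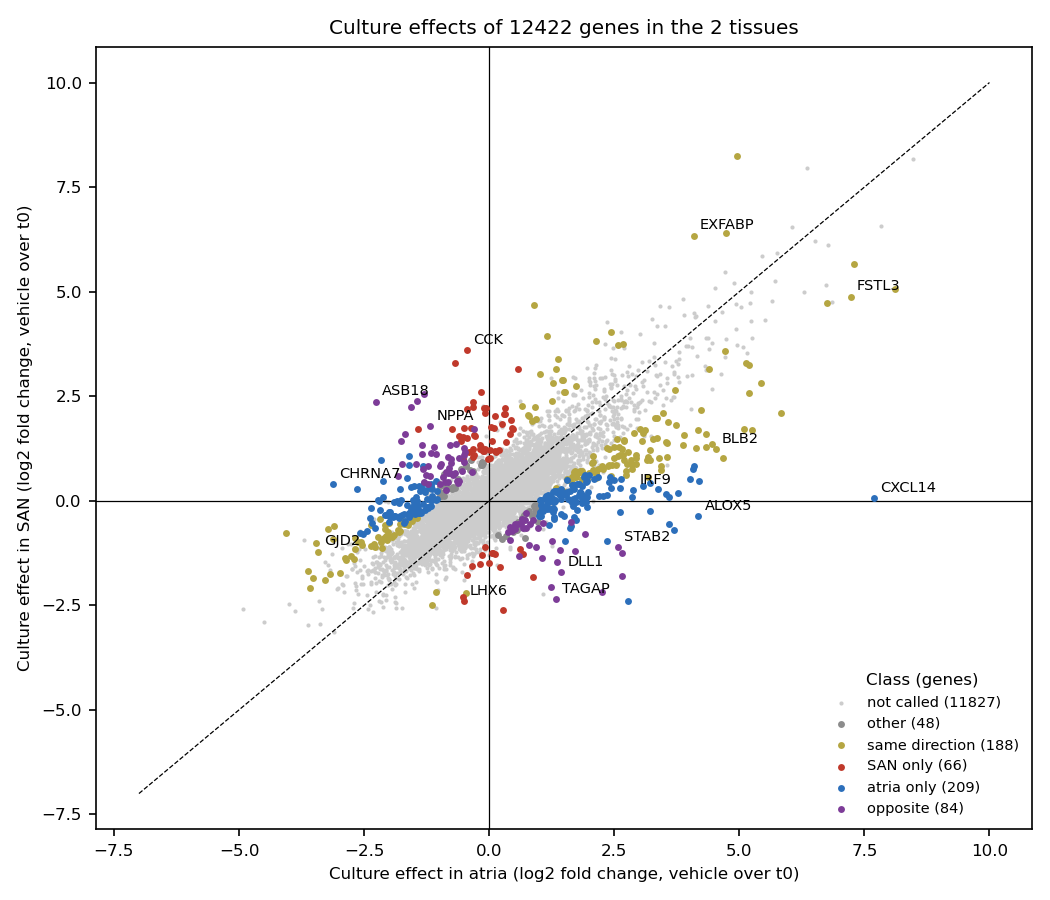
Culture response of 12422 genes, with the log2FC of vehicle over t0 in atria on the x axis and in SAN on the y axis (4 libraries a group). Each point is a gene, coloured by class, and the dashed line marks equal responses; CXCL14 lies at 7.69 in atria and 0.07 in SAN, and the 84 opposite genes fall in the upper left and lower right.

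Genes that rose in atria only were often higher in SAN before culture. Of the 120 such genes, 58 (48.3%) were higher in fresh SAN than in fresh atria by more than 1, against 7.1% of all genes tested. Of these 58, 33 lay within 1 of each other in the tissues after culture, as did 317 of the 882 such genes among all tested. The median gap of the 120, SAN minus atria, went from 0.98 at t0 to -0.60 with vehicle. The gap at t0 and the difference in response share the t0 libraries, so these shares are a description without a test. A called difference also moves such a gap by more than 1 towards or past 0. The share within 1 after culture was thus set in part by the selection. Of the 120 genes, 115 had no overlap between t0 and vehicle libraries in atria, where 54.0% of all genes had none. The class was picked by a test on these same libraries, so little overlap follows from the choice. The genes named for the largest differences of each single-tissue class were also chosen for no overlap in the tissue that moved. A 95% interval of the SAN response within -1 and 1 was found for 160 of all 209 genes moved in atria only, and the other 49 may also have moved in SAN by more than 1. The 49 included CXCL14 (SAN interval -1.44 to 1.58), PAPPA2 (-1.60 to 0.20), MSX2 (-1.21 to 0.11) and BGN (-1.13 to 1.31). CHRNA7 (-0.29 to 1.07) and GADL1 (-0.05 to 1.13), which fell in atria, were also among them.

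CXCL14, a chemokine gene (GRCg7b chromosome 13, 14936550 to 14943837), had the largest difference of the called genes. In atria it stood at -1.12, -4.88, -4.13 and -3.02 at t0 and at 4.26, 4.78, 4.08 and 4.49 with vehicle, and in SAN at 2.58, 4.14, 2.22 and 1.64 at t0 and 4.64, 3.26, 2.21 and 0.74 with vehicle. All 4 cultured atrial libraries lay above every fresh one, whereas the SAN libraries of the 2 conditions overlapped. The atrial log2FC was 7.69 and that of SAN 0.07, a difference of -7.62 (SE 1.03, adjusted p = 2.13e-05). Because the fresh atrial values are low, the size depended on the scale, and a pseudocount of 1 on the linear values reduced the difference to -4.15. ALOX5, the 5-lipoxygenase that starts leukotriene synthesis (chromosome 6, 18397149 to 18421089), behaved alike at higher levels. Its atrial values rose from 0.84, 1.07, 0.88 and 0.91 to 5.35, 4.72, 4.84 and 5.50, into and above the SAN range of 4.49 to 5.15 at t0 and 4.29 to 4.53 with vehicle. The atrial groups were far apart and the SAN groups overlapped. The difference of ALOX5 was -4.54 (SE 0.27, adjusted p = 1.56e-10).

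MSX2, a homeobox transcription factor gene downstream of BMP signals (chromosome 13, 9409592 to 9415374), was near 0 in fresh atria (-0.36, -0.64, 0.09 and -0.26) and reached 2.86, 3.44, 3.29 and 3.63 after culture. SAN held 2.61 to 4.59 before and 2.68 to 4.06 after, overlapping ranges, and the difference was -4.15 (SE 0.45, adjusted p = 1.7e-06). SLC6A4, the serotonin transporter (chromosome 19, 6683963 to 6704786), followed the same course from a range of -0.55 to 0.54 in fresh atria to 3.31 to 4.43, beside 3.26 to 4.68 and 3.31 to 4.17 in SAN (difference -3.60, adjusted p = 1.24e-05). For MSX2 and SLC6A4 the cultured atrial libraries thus overlapped with SAN of either condition. PAPPA2, a protease that cleaves insulin-like growth factor binding proteins, and BGN, the small proteoglycan biglycan, rose in atria by 3.69 and 3.59 with differences of -4.40 and -3.50 (adjusted p = 3.37e-05 and 0.00655). With a pseudocount of 1 these differences were -2.80 and -1.46.

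The 89 genes that fell in atria only included 25 (28.1%) that had been higher in fresh atria by more than 1, against 2.91% of all genes. Of these 25, 22 lay within 1 of SAN after culture, as did 173 of the 361 such genes among all tested. Here too the selection by a called difference and the shared t0 libraries set these shares in part, and they were not tested. SEMA3C, a secreted semaphorin that guides axons and outflow tract cells (chromosome 1, 11250327 to 11372449), went from 4.64, 4.27, 4.61 and 4.48 in fresh atria to 1.67, 2.25, 1.66 and 1.82, while SAN ranged from 1.90 to 2.96 at t0 and from 1.85 to 3.13 with vehicle. Cultured atria ended at the level of SAN, and the atrial groups did not overlap. The difference was 2.94 (SE 0.39, adjusted p = 1.57e-05). GADL1, a relative of glutamate decarboxylase, and NEGR1, a cell adhesion molecule of neurons, also fell in atria only, GADL1 to between 0.37 and 0.88 and NEGR1 to between 0.66 and 1.64, with differences of 2.18 each (adjusted p = 0.000719 and 0.000415).

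CHRNA7 and RBPJL stood below SAN after culture, RBPJL already before it. CHRNA7, the alpha 7 subunit of the nicotinic acetylcholine receptor (chromosome 10, 6676089 to 6718428), was alike in the fresh tissues, at 1.69, 1.49, 1.69 and 1.54 in atria and 2.32, 1.97, 1.66 and 1.46 in SAN. After culture the atrial libraries stood at -2.79, -0.90, -1.23 and -1.15 and the SAN libraries at 1.81, 1.98, 2.49 and 2.69. Only the atrial groups were separate, and the difference was 3.51 (SE 0.46, adjusted p = 1.59e-05), or 1.86 with a pseudocount of 1. RBPJL, a paralogue of the Notch effector RBPJ, held 3.62 to 3.98 in SAN throughout and dropped in atria from a range of 1.12 to 1.42 to one of -1.51 to -0.53 (difference 2.24, adjusted p = 4.64e-05). STEAP1, of a metalloreductase family, had a difference of 2.21 (adjusted p = 4.69e-05). With a pseudocount of 1, the differences of RBPJL, STEAP1 and GADL1 were 1.17, 1.43 and 1.43.

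Fewer genes moved in SAN only: 50 rose and 16 fell. Among the 50, 13 (26.0%) had been higher in fresh atria by more than 1 and 5 in fresh SAN. In SAN 47 of the 50 had no overlap, where 45.4% of all genes had none, which follows in part from the choice of the class. Among the 16, 12 (75.0%) had been higher in fresh SAN. Over all genes tested, 7.1% were higher in fresh SAN by more than 1 and 2.91% in fresh atria. These gaps share the t0 libraries with the difference in response, so the shares are again a description without a test. The atrial 95% interval lay within -1 and 1 for 44 of all 66 genes. Those outside included CCK (-1.24 to 0.34), LY6CLEL (-1.40 to 0.02), CHGA (-0.56 to 1.71) and ACTG2 (-1.27 to 0.05), which may also have moved in atria by more than 1.

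CCK, the peptide hormone cholecystokinin (chromosome 2, 43744184 to 43748969), was low in both fresh tissues, at 0.54, 0.44, 0.49 and 1.28 in SAN and 0.18, -0.24, -0.67 and 1.76 in atria. It rose in cultured SAN to 4.42, 4.43, 3.80 and 4.54 and stood at 0.19, -0.30, 0.19 and -0.86 in cultured atria. Every cultured SAN library lay above all 12 others, and the difference was 4.06 (SE 0.54, adjusted p = 1.67e-05). CCN2, also called connective tissue growth factor (chromosome 3, 56836500 to 56839471), rose in SAN from 5.13, 4.72, 5.19 and 4.35 to 7.61, 7.15, 7.12 and 6.45. In atria it held 5.65, 5.72, 6.10 and 5.70 at t0 and 5.22, 5.70, 6.11 and 4.88 with vehicle, so that only the SAN groups were separate. The difference of CCN2 was 2.55 (SE 0.32, adjusted p = 7.96e-06).

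ANGPT2, the angiopoietin that is made by endothelium and acts on its TIE2 receptor (chromosome 3, 88275880 to 88322057), rose in SAN from 4.31, 4.81, 4.11 and 4.23 to 6.46, 6.59, 6.69 and 6.64. The atrial values were 4.46, 5.20, 4.73 and 5.03 at t0 and 4.24, 5.12, 4.97 and 4.72 with vehicle, and overlapped. Its difference was 2.32 (SE 0.26, adjusted p = 2.73e-06). LY6CLEL and RBM44 had differences of 3.99 and 2.68 (adjusted p = 6.18e-06 and 0.0001), and LY6CLEL had 2.31 with a pseudocount of 1. CHGA, the secretory granule protein chromogranin A, varied widely in cultured SAN, at 3.79, 3.08, 4.59 and 0.70. Its difference of 2.58 (SE 0.78, adjusted p = 0.0287) lost the call without SAN t0 replicate 1 or 3, SAN vehicle replicate 1 or 3, atria t0 replicate 4 or atria vehicle replicate 4, with differences of 2.06 to 2.52 and adjusted p-values of 0.0533 to 0.074.

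All 6 named genes that fell in SAN only had a higher mean in SAN than in atria at t0. LHX6, a LIM homeobox transcription factor gene (chromosome 17, 9327241 to 9341479), went from 2.49, 3.33, 2.84 and 2.82 to 0.25, 0.77, 0.98 and -0.12 in SAN and ranged from -1.04 to -0.01 and from -1.24 to -0.73 in atria. The SAN groups were separate and the atrial groups overlapped, with a difference of -1.89 (SE 0.44, adjusted p = 0.00524). CA8, a carbonic anhydrase relative without the enzyme's activity, fell in SAN by 2.29 on the log2 scale with a difference of -1.76 (adjusted p = 0.00298). The atrial log2FC was -0.51 for LHX6 and -0.53 for CA8, with 95% intervals reaching down to -1.15 and -1.09. Both genes may thus also have fallen in atria by more than 1. KCNMA1, the pore of the large conductance calcium-activated potassium channel, SEMA5A, a transmembrane semaphorin, GLIPR1L and SLC45A4 had differences from -1.49 to -1.34 (adjusted p from 0.00127 to 0.0172).

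**Figure D2:**
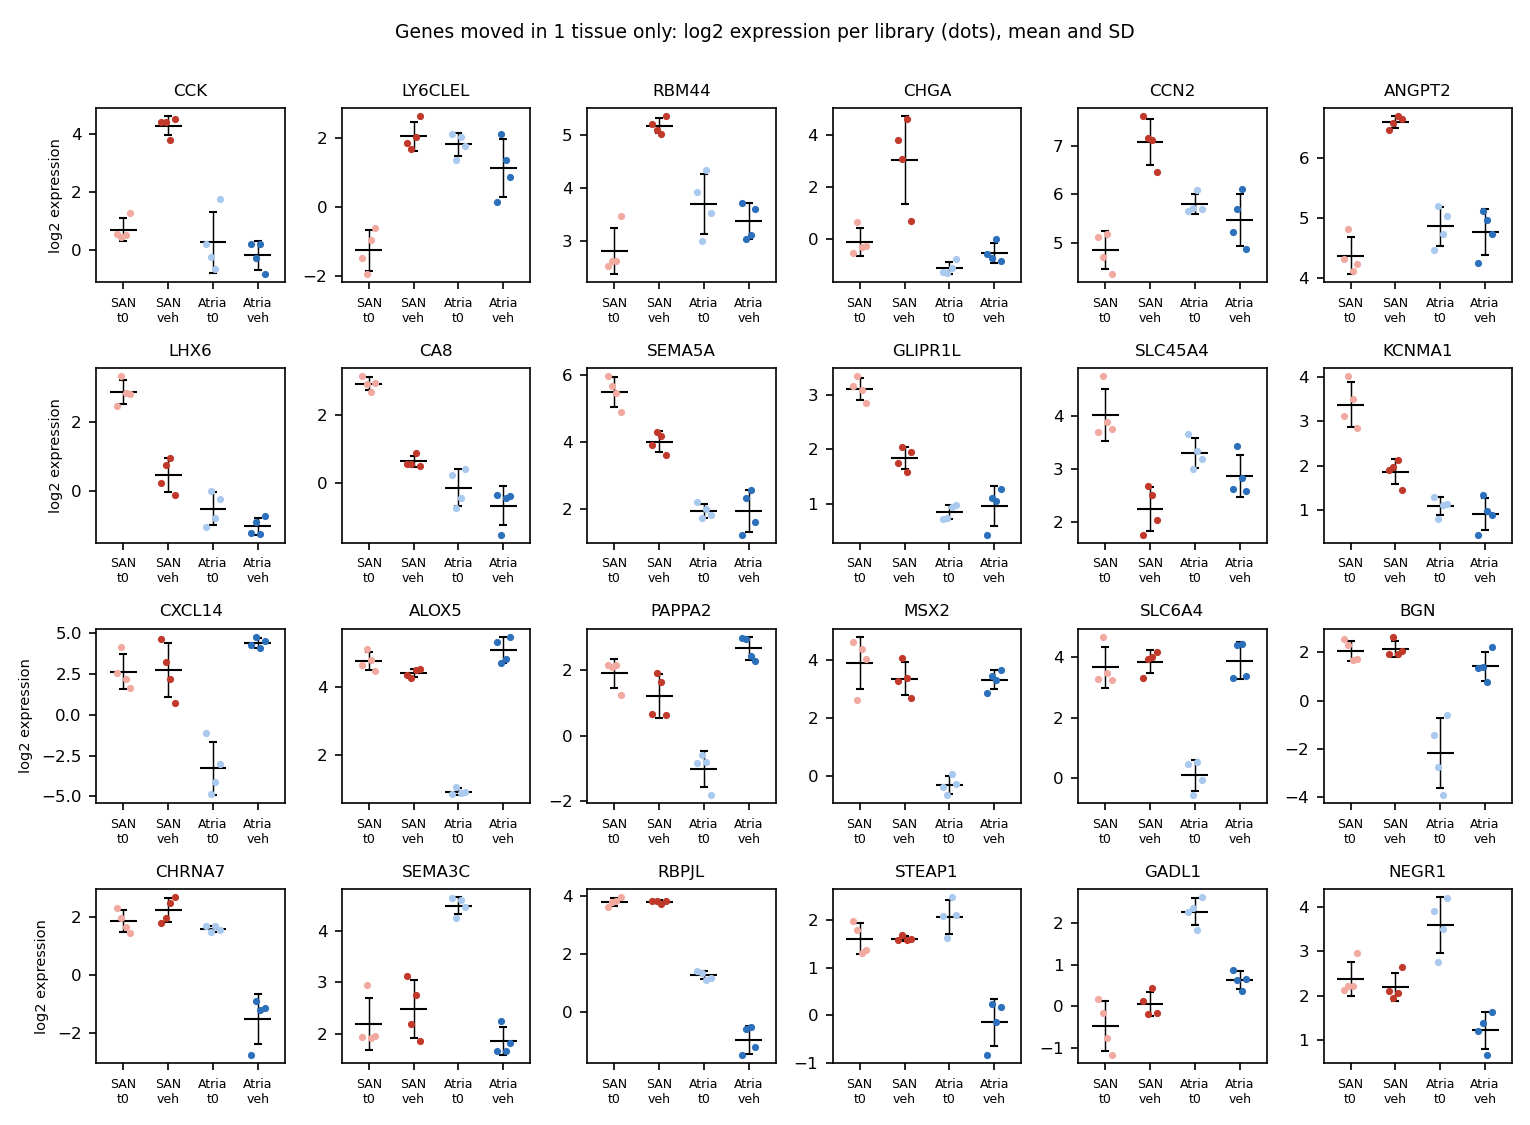
Log2 expression (y axis) of 24 genes moved in 1 tissue only, with a dot per library and the mean and SD of 4 libraries in fresh (t0) and vehicle-treated (veh) SAN and atria. The rows from top to bottom hold genes that rose in SAN, fell in SAN, rose in atria and fell in atria; cultured atria reach the SAN range for MSX2 and SLC6A4, and cultured SAN stands above the other groups for CCK and ANGPT2.

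At 84 genes culture moved the tissues in opposite directions, 50 up in SAN and down in atria and 34 the reverse, and at 23 of them both responses passed 1 (12 and 11). Among the 50, 15 (30.0%) had been higher in fresh atria by more than 1 and 10 of these 15 lay within 1 of SAN after culture. Among the 34, 16 (47.1%) had been higher in fresh SAN and 7 of these 16 lay within 1 after culture. The median gap of the 34 went from 0.85 to -1.14. Over all genes tested, 7.1% had been higher in fresh SAN and 2.91% in fresh atria by more than 1. Of these, 317 of 882 and 173 of 361 lay within 1 after culture. The shares of the opposite classes were set in part by their selection on the difference and by the shared t0 libraries, and were not tested. In both tissues at once, t0 and vehicle libraries did not overlap for 28 of the 50 and 23 of the 34, where 33.9% of all genes had no overlap in both. Both classes were picked by tests on these same libraries, so this follows in part from the choice. The 8 genes named for each direction were also chosen for no overlap in either tissue.

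NPPA, which encodes atrial natriuretic peptide (chromosome 21, 5570001 to 5572642), rose in SAN from 6.20, 5.51, 6.07 and 5.22 to 7.68, 7.33, 7.08 and 8.08 and fell in atria from 10.74, 10.47, 10.66 and 10.11 to 9.55, 9.22, 9.37 and 9.14. No group overlapped with another, and atria stayed above SAN. The log2FC was 1.79 in SAN and -1.17 in atria, a difference of 2.96 (SE 0.32, adjusted p = 1.74e-06). ASB18, an ankyrin repeat and SOCS box gene (chromosome 7, 5232748 to 5246681), rose in SAN from 0.04, 0.22, 0.14 and 0.00 to 2.36, 2.68, 2.59 and 2.26. In atria it fell from 0.51, 0.26, 1.73 and 0.69 to -1.14, -0.95, -2.76 and -1.03. The conditions did not overlap in either tissue, SAN went from just below atria to well above, and the difference was 4.64 (SE 0.60, adjusted p = 1.19e-05) or 2.66 with a pseudocount of 1.

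DGKI, a diacylglycerol kinase, UPP1, the uridine phosphorylase, SYP, the synaptic vesicle protein synaptophysin, SOX18, a transcription factor gene of endothelium, and FAM20C, a kinase of secreted proteins, had SAN responses from 1.12 to 1.43 and atrial responses from -1.76 to -1.06. SOX18 (chromosome 20, 9722897 to 9726432) ranged from 3.38 to 3.94 in fresh SAN and from 2.87 to 3.66 in fresh atria. After culture it held 4.64 to 4.96 in SAN and 1.69 to 2.83 in atria, ranges outside those of the fresh tissue in both directions (difference 2.30, SE 0.27, adjusted p = 3.94e-06). WSCD2 had a difference of 3.83, but its fresh SAN values were scattered from -5.15 to -1.56, and with a pseudocount of 1 the difference was 1.59. DGKI moved from 3.19 to 2.00 in the same way.

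In the reverse direction, TAGAP, a GTPase-activating protein first known from T cells (chromosome 3, 51898221 to 51905966), fell in SAN from 3.74, 2.96, 3.46 and 3.73 to 0.89, 1.20, 1.22 and 1.15. It rose in atria from 2.76, 2.51, 3.08 and 2.50 to 4.55, 3.54, 3.98 and 4.12. The means of the tissues thus changed order, with a difference of -3.69 (SE 0.37, adjusted p = 5.69e-07). STAB2, a scavenger receptor for hyaluronan on specialised endothelium (chromosome 1, 54816115 to 54894225), went from 3.26, 3.81, 3.48 and 3.47 to 2.04, 2.33, 2.85 and 2.35 in SAN and from 1.82, -0.04, 1.56 and 1.27 to 3.79, 3.54, 3.82 and 3.72 in atria. Cultured atria reached the range of fresh SAN, and the difference was -3.68 (SE 0.43, adjusted p = 4.61e-06). DLL1, a Notch ligand (chromosome 3, 40510855 to 40522846), kept its order, since SAN fell from a range of 3.21 to 3.65 to one of 1.50 to 1.93 and atria rose from -2.91 to -1.32 to between -1.24 and 0.17 (difference -3.15, adjusted p = 1.94e-05).

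Further genes with opposite responses in this direction, without overlap in either tissue, were FAT2, an atypical cadherin (difference -3.90), VWC2, a secreted BMP antagonist (-2.90), APLNR, the apelin receptor (-2.61), NKAIN1 (-2.44) and A2M, the protease inhibitor alpha 2 macroglobulin (-2.21), with adjusted p-values from 2.66e-06 to 0.000349. APLNR (chromosome 5, 16608957 to 16610391) exchanged its levels between the tissues. It stood at 3.90, 4.57, 4.41 and 4.71 in fresh SAN and 4.60, 4.31, 4.73 and 4.73 in cultured atria, and at 3.55, 3.03, 3.27 and 2.83 in fresh atria and 3.21, 3.44, 3.09 and 3.09 in cultured SAN. The first pair of groups overlapped with each other and lay above the second. A pseudocount of 1 gave -1.89 for DLL1 and -1.86 for VWC2.

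**Figure D3:**
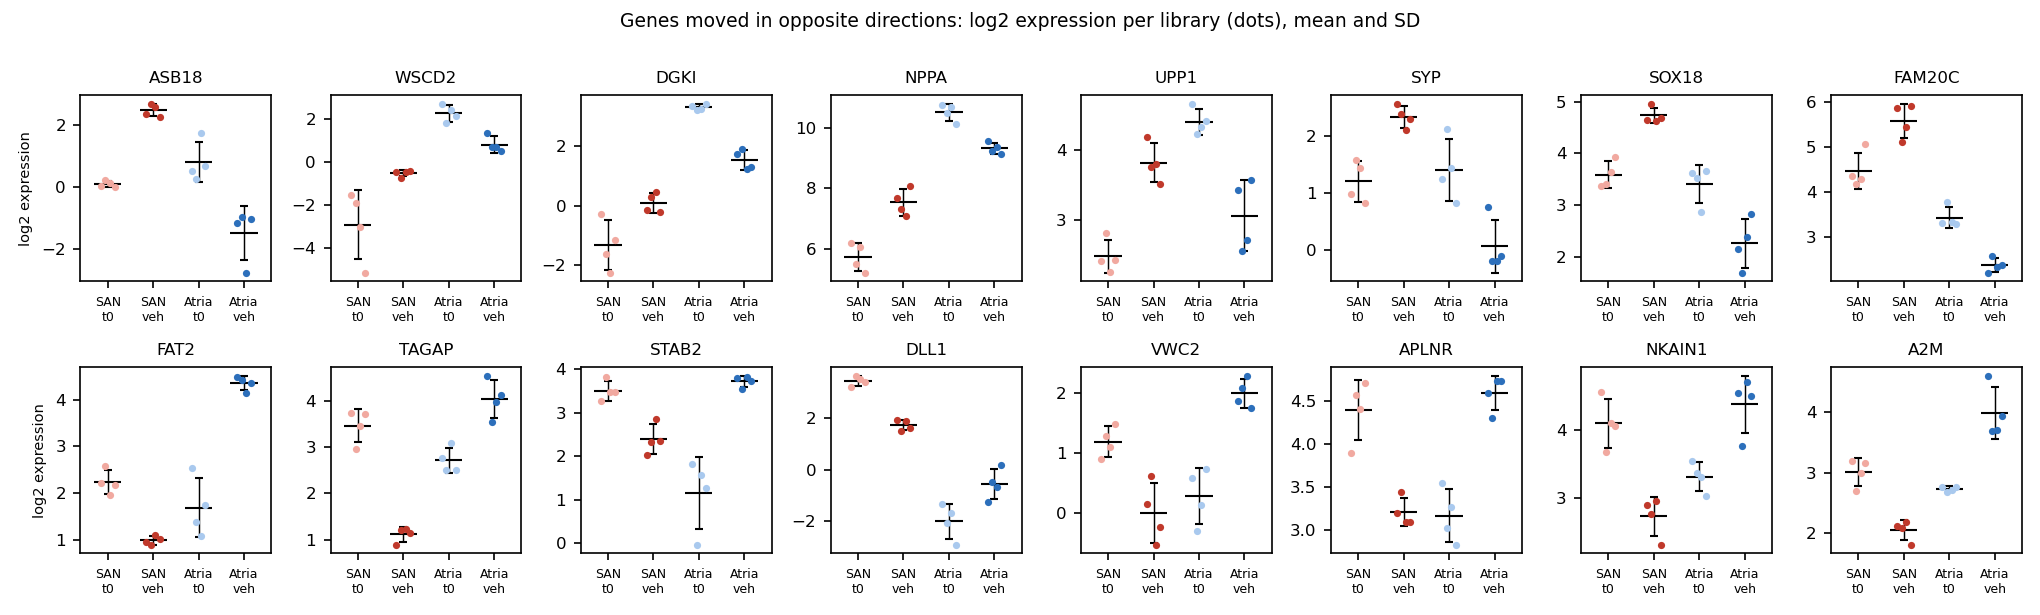
Log2 expression (y axis) per library (dots), with mean and SD of 4 libraries, of 16 genes moved in opposite directions by culture; the upper row rose in SAN and fell in atria, the lower row fell in SAN and rose in atria. NPPA stays higher in atria in both conditions, whereas TAGAP and FAT2 are higher in atria than in SAN after culture.

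The tissues are mixtures, and in such bulk samples fewer cells of a type and less RNA per cell cannot be told apart. Marker lists of the cell types were therefore read beside the genes. Calls in these lists stand against the 4.79% called over all genes tested. The 8 markers shared by all cardiomyocytes had no called gene and a median difference of 0.09, and none of 12 mesenchymal, 10 epicardial, 12 macrophage and 6 foregut markers was called by limma. At an unadjusted p under 0.05 these lists had 0 cardiomyocyte, 4 mesenchymal, 3 epicardial, 0 macrophage and 1 foregut genes. Across all 12422 genes tested, 3198 passed that unadjusted limit. This was a lower share than in the mesenchymal and epicardial lists and a higher share than in the cardiomyocyte, macrophage and foregut lists. No marker of any list was at the lowest value of the table in all libraries of a group. Erythroid markers stood out by size: their summed linear level went from a median of 1923 (985.5 to 4901) to 991 (726.7 to 1815) in SAN and from 2890 (1592 to 3989) to 431.2 (181.6 to 1100) in atria, with a median difference in response of 1.59 over 8 markers, although 0 of 8 passed the test (1 at an unadjusted p under 0.05). Endothelial markers summed to a median of 1016 and 811.7 in SAN and to 694.7 and 494.6 in atria, t0 before vehicle. Of the 12 markers 1 was called (8.33%), TIE1, more positive in SAN. At any size, 5 had an adjusted p under 0.05 from limma, where 1613 of all 12422 genes had one. An unadjusted p under 0.05 was found for 8 of the 12, and the median difference in response was 0.40. The median sum of the endothelial markers was lower after culture in both tissues. Macrophage markers summed to 108.6 and 177.7 in SAN and 59.05 and 87.15 in atria. Neural and Schwann cell markers, of which NEFM was called (1 of 11, 9.09%), summed to 497 and 393.4 in SAN and 475.4 and 352.3 in atria. Of 9 SAN myocyte markers 2 were called (22.2%), VSNL1 among them, with sums of 1116 and 876.3 in SAN and 463 and 210.3 in atria. Of 8 atrial working myocyte markers 4 were called (50%), all more positive in SAN and NPPA, BMP10 and MYL4 among them. The median difference over the 8 was 0.50. Their sums were 2486 (1728 to 2637) and 2302 (1908 to 2973) in SAN and 7630 (5752 to 8679) and 6040 (5780 to 6759) in atria. The part of cell makeup in the differences was not tested.

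Of 8 measured genes of natriuretic peptides and atrial myocardium, 4 were called (against 4.79% of all genes), and NPPA, BMP10 and MYL4 were more positive in SAN. The same 4.79% is the background for the called share of every list below. NPPA, BMP10 and MYL4 were also called among the atrial working myocyte markers. Some gene lists share members in this way, so their counts are not independent. BMP10, a ligand needed for trabecular growth in the mouse, fell in atria from 8.63, 7.84, 8.34 and 8.16 to 7.26, 7.0, 6.99 and 7.05 and held 1.90 to 3.93 and 2.67 to 3.87 in SAN. The atrial groups were separate and the SAN groups overlapped (difference 1.55, SE 0.45, adjusted p = 0.0236), and leaving out SAN t0 replicate 3 or 4 or SAN vehicle replicate 4 ended the call, with differences of 1.26 to 1.42 and adjusted p-values of 0.0544 to 0.0554. MYL4, the atrial essential myosin light chain, fell in atria from a range of 7.60 to 8.54 to one of 6.43 to 7.05 and stood at 6.74 to 7.55 and 7.10 to 7.79 in SAN (difference 1.52, adjusted p = 0.000325). NPPC, the C-type peptide, had a difference of -1.20 (adjusted p = 0.0148), lost with a pseudocount of 1 and, at -0.953, without SAN vehicle replicate 4. The median over the 8 genes was -0.41, of the opposite sign to most called members.

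In the sarcomere list 3 of 36 genes were called (8.33%): MYL4 and TPM1 more positive and MYH15 more negative in SAN. TPM1, alpha tropomyosin, fell in atria from 8.82, 9.16, 9.12 and 9.01 to 7.29, 7.88, 7.67 and 7.28 and stayed at 9.05 to 9.32 in SAN (difference 1.41, SE 0.17, adjusted p = 6.02e-06). MYH15, a myosin heavy chain gene of the chick heart, fell in SAN from 9.69, 8.95, 9.51 and 9.40 to 7.83, 8.13, 7.95 and 8.61 and held 7.51 to 8.31 in atria in both conditions (difference -1.32, SE 0.25, adjusted p = 0.000846). Each of these genes was thus separate between t0 and vehicle in a single tissue.

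Among 35 ion channel and calcium cycling genes 8 were called (22.9%), 3 more positive and 5 more negative in SAN, and 6 of the 8 moved in the same direction in both tissues. KCNJ8, the ATP-sensitive potassium channel pore, rose by 0.54 in SAN and 2.13 in atria (difference -1.59, adjusted p = 6.67e-05). GJD2, the connexin 36 gene on chromosome 5 (31789548 to 31792289), went in SAN from 2.47, 1.95, 1.87 and 1.46 to 0.40, 1.51, 0.69 and 0.28 and in atria from 3.77, 2.70, 2.95 and 3.27 to -0.09, -0.16, -0.44 and -0.29. The SAN groups overlapped slightly and the atrial groups did not, and it fell by 1.21 in SAN and by 3.41 in atria (difference 2.20, SE 0.38, adjusted p = 0.000321). KCND2, a transient outward potassium channel, fell in atria only (difference 1.73, adjusted p = 0.00194). RGS4, a regulator of G protein signalling, rose by 1.97 in SAN and 3.35 in atria (difference -1.39, adjusted p = 0.0031), short of the limit at -0.73 with a pseudocount of 1 and -0.95 after quantile normalization. CACNA2D2 and KCNJ5 were also called.

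Of 27 cardiac transcription factor genes 3 were called (11.1%), with a median difference of -0.13. TBX1, needed for the second heart field, rose in SAN from 2.71, 2.10, 2.88 and 2.74 to 4.05, 4.63, 4.20 and 3.72, and overlapped between conditions in atria at 0.08 to 1.32 (difference 1.83, SE 0.35, adjusted p = 0.0011). HAND1 rose in SAN from a range of 2.27 to 3.07 to one of 3.77 to 4.45, still below the atrial 5.31 to 6.54 (difference 1.30, adjusted p = 0.00835). IRX1, an Iroquois homeobox gene, stood at -4.67 to -3.62 in fresh atria and -1.19 to 0.37 after culture, beside -0.15 to 1.58 and 0.71 to 1.92 in SAN. Its difference of -3.38 (adjusted p = 0.000421) concerns low levels and was -0.67 (adjusted p = 0.154) with a pseudocount of 1. In the HOX and retinoic acid list 2 of 42 were called, a share (4.76%) near the 4.79% of all genes. CRABP2, a retinoic acid binding protein, fell further in atria (difference 1.49, adjusted p = 0.00943). HOXA7 was at the lowest value of the table, -5.87, in 2 fresh atrial libraries and at -2.85 and -4.12 in the others, and at -1.96 to -0.76 in cultured atria against 0.51 to 1.51 in SAN, levels at which no fold is given.

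YAP-TEAD target genes, which respond to cell stretch and actin tension, were called at 5 of 19 (26.3%), all more positive in SAN: CCN2, ANKRD1, CYR61, F3 and AMOTL2. The median difference over the 19 was 0.57, against 0.00 over all genes. CYR61, a relative of CCN2 (chromosome 8, 15923041 to 15925475), went from 5.61, 4.32, 5.26 and 4.96 to 6.48, 5.95, 5.86 and 5.16 in SAN and from 6.11, 5.92, 6.13 and 5.75 to 5.05, 5.03, 5.33 and 4.56 in atria. The SAN groups overlapped and the atrial groups did not (difference 1.81, SE 0.32, adjusted p = 0.000389). ANKRD1, a titin-associated repressor induced by load, rose in SAN from 3.10, 3.05, 3.64 and 3.30 to 4.98, 4.51, 4.61 and 4.33, and in atria stood at 2.31 to 3.38 and 0.90 to 2.75 (difference 2.12, SE 0.38, adjusted p = 0.000495). F3, tissue factor, fell in atria only (difference 1.76, adjusted p = 0.000449). The list as a whole did not rise in SAN: 4 members rose and 4 fell there, whereas 1 rose and 5 fell in atria. Over all genes 8.01% rose and 5.59% fell in SAN, and 10.1% rose and 9.02% fell in atria.

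FGF and ERK feedback genes were called at 6 of 32 (18.8%), again all more positive in SAN, with a median difference of 0.58. In SAN 6 members rose and 3 fell, and in atria 6 rose and 8 fell. The median responses were -0.09 in SAN and -0.61 in atria. Over all genes 8.01% rose and 5.59% fell in SAN, and 10.1% rose and 9.02% fell in atria. ETV4, an ETS factor induced by FGF signals (chromosome 27, 3160578 to 3174795), rose in SAN from 4.51, 4.51, 4.60 and 4.24 to 5.14, 5.04, 4.89 and 5.18 and fell in atria from 5.46, 5.49, 5.14 and 5.24 to 3.26, 3.66, 3.72 and 3.37. DUSP6, the phosphatase that limits ERK (chromosome 1, 43341540 to 43346237), went from 4.98, 4.99, 5.17 and 5.36 to 5.49, 5.52, 5.57 and 5.67 in SAN and from 5.97, 5.88, 5.92 and 6.06 to 4.45, 4.74, 4.91 and 4.54 in atria. For both genes the order of the tissues was turned around without overlap. The differences were 2.42 for ETV4 (SE 0.16, adjusted p = 1.09e-09) and 1.74 for DUSP6 (SE 0.13, adjusted p = 5.9e-09). FGF12, an intracellular family member that binds sodium channels, fell in atria only, from 5.01 to 5.70 to a range of 2.85 to 3.69 (difference 1.73, adjusted p = 0.00012). The ligand FGF9 fell in both tissues, by 1.04 in SAN and 2.29 in atria (difference 1.26, adjusted p = 0.0189), and FGF16 and ETV1 were the other called members.

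Of 26 antigen presentation and interferon genes 4 were called (15.4%, median difference -0.16), with BLB2, BLB1 and IRF9 more negative in SAN and OASL more positive. The MHC class II beta genes BLB1 and BLB2, neighbours on chromosome 16 (2185532 to 2187356 and 2192787 to 2194303), rose in atria by 4.10 and 4.52, and their log2FC in SAN was 0.84 (adjusted p = 0.105) and 1.24 (adjusted p = 0.0012). BLB2 stood at 6.40, 5.97, 5.75 and 6.52 in cultured atria, above 2.56 to 3.77 in cultured SAN and 1.32 to 2.21 in fresh tissue of either kind (difference -3.28, SE 0.42, adjusted p = 1.02e-05). Since the genes are closely similar copies, the split of reads between them is uncertain. IRF9, a transcription factor of the interferon response (chromosome 20, 10406021 to 10408887), rose in atria from 3.08, 2.66, 2.93 and 2.90 to 5.96, 5.58, 5.83 and 5.71 and lay between 3.34 and 4.10 in SAN in both conditions. Its difference was -2.63 (SE 0.20, adjusted p = 1.51e-08). OASL, an interferon-induced gene, rose instead in SAN, from a range of 1.96 to 2.27 to one of 3.15 to 3.83 (difference 1.36, adjusted p = 0.00776).

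**Figure D4:**
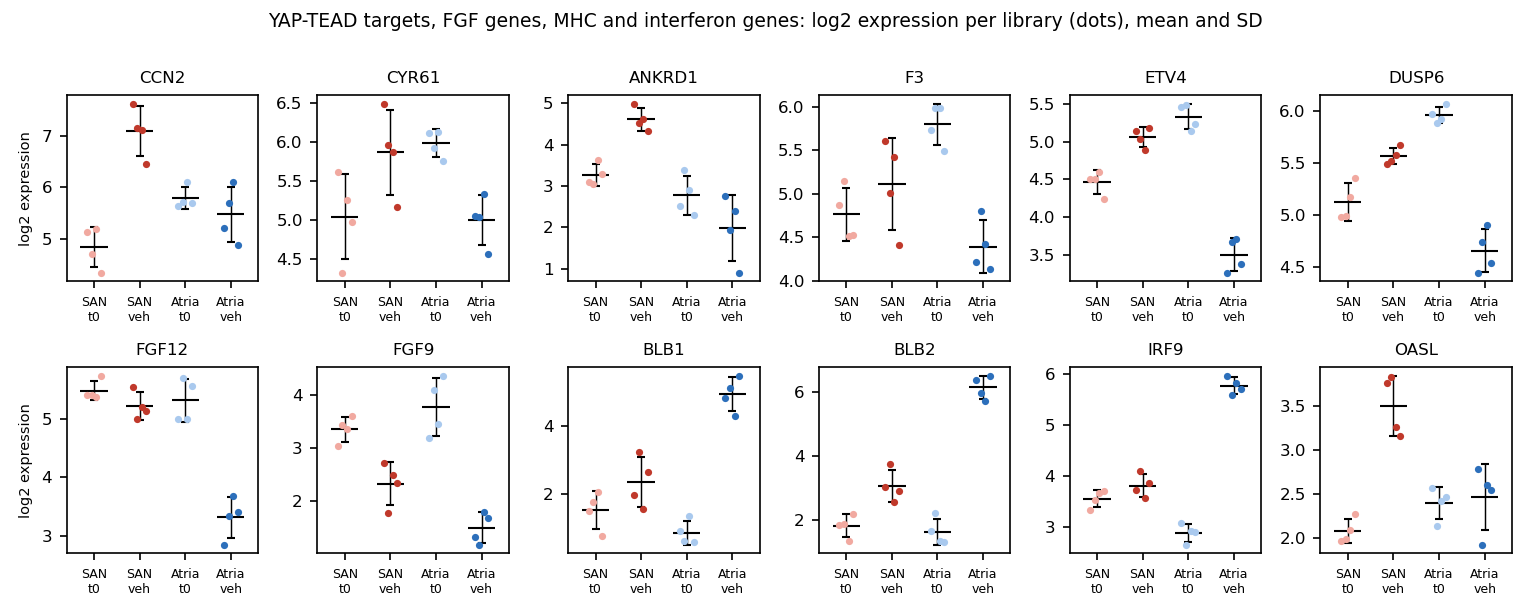
Log2 expression (y axis) per library (dots), with mean and SD of 4 libraries a group, of 4 YAP-TEAD targets (CCN2, CYR61, ANKRD1 and F3), 4 genes of the FGF list (ETV4, DUSP6, FGF12 and FGF9) and 4 genes of the interferon list (BLB1, BLB2, IRF9 and OASL). ETV4 and DUSP6 cross between the tissues, and BLB1, BLB2 and IRF9 are highest in cultured atria.

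Chemokines, interleukins and inflammatory mediators were called at 6 of 65 (9.23%), 3 in each direction. CCR7, a chemokine receptor of dendritic cells and lymphocytes, rose in atria from a range of -0.39 to 0.31 to one of 3.86 to 4.15 and stood at 0.58 to 2.58 and 1.92 to 2.70 in SAN (difference -3.31, SE 0.55, adjusted p = 0.00025). EXFABP, a chick lipocalin of inflammation and cartilage, rose in both tissues, by 6.34 in SAN and 4.09 in atria (difference 2.25, adjusted p = 0.000209), and ended in overlapping ranges, 8.09 to 8.81 and 7.71 to 8.95. IL34, a ligand of the macrophage colony stimulating factor receptor, had a difference of -1.68 (adjusted p = 0.017), not passed with a pseudocount of 1. IL20RA, a receptor chain for interleukin 20, had a difference of 1.29 (adjusted p = 0.0345), and the call was lost without any of 10 libraries, with adjusted p-values of 0.0531 to 0.08. Beside these genes, the 12 macrophage markers had a median difference of -0.05.

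Developmental signals other than FGF went both ways. In the WNT list 7 of 51 were called (13.7%), 2 more positive and 5 more negative in SAN. WNT4 fell in SAN from 3.43, 2.50, 2.52 and 0.79 to 0.55, 0.01, 0.50 and -0.03 and rose in atria from 0.50, -0.85, -0.28 and 0.15 to 1.44, 0.39, 1.06 and 1.56, with a slight overlap in atria (difference -3.29, SE 0.55, adjusted p = 0.000259). The ligand WNT9A moved oppositely, with a log2FC of -0.50 in SAN and 1.64 in atria (difference -2.14, adjusted p = 1.61e-05). RSPO3, which amplifies WNT signals, rose by 0.66 in SAN and 2.14 in atria (difference -1.48, adjusted p = 0.000147). LGR5, a receptor for R-spondins, fell by 1.32 in SAN and by 2.77 in atria (difference 1.45, adjusted p = 0.0211), a call lost without SAN t0 replicate 4 or atria vehicle replicate 4 and, at 1.21 (adjusted p = 0.0691), after quantile normalization. WNT6 had a difference of -3.05 (adjusted p = 0.00315) at low levels, and -0.49 with a pseudocount of 1. In the BMP, TGF-beta and ID list 8 of 53 were called (15.1%), 3 more positive and 5 more negative.

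GDF10, a BMP family ligand, moved oppositely, by 2.24 in SAN and -1.55 in atria (difference 3.80, adjusted p = 0.00244, or 2.02 with a pseudocount of 1). Its fall in atria concerns low levels that overlapped, -3.23 to -1.47 at t0 and -4.73 to -2.90 with vehicle. FSTL3, which binds activin, rose in both, by 4.88 and 7.23 (difference -2.35, adjusted p = 1.3e-05), and had -0.85 with a pseudocount of 1 and -1.19 after quantile normalization. Of 18 Notch genes 2 were called (11.1%), the ligands DLL1, more negative in SAN, and DLL4, more positive. DLL4, the endothelial ligand, rose in SAN from 3.32 to 3.54 to between 4.52 and 4.66 and overlapped in atria at 2.93 to 3.70 (difference 1.07, SE 0.21, adjusted p = 0.00132), and without atria t0 replicate 1 or atria vehicle replicate 2 it was 0.976 or 0.946, short of the limit of 1.

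Guidance cues were called at 8 of 55 (14.5%), 5 more positive and 3 more negative in SAN. Beside SEMA3C and SEMA5A, SEMA3D fell by 0.57 in SAN and by 2.37 in atria (difference 1.80, SE 0.18, adjusted p = 4.5e-07), and the ephrin receptor gene EPHA3 by 1.06 and 2.54 (difference 1.48, adjusted p = 0.0125). Integrins and laminins were called at 3 of 35 (8.57%), all more positive in SAN. ITGB8, an integrin beta subunit that frees latent TGF-beta, fell in atria from 4.06, 4.48, 3.87 and 4.30 to 2.22, 2.49, 2.21 and 2.56 and held 3.14 to 3.55 in SAN in both conditions (difference 1.75, SE 0.20, adjusted p = 2.82e-06). ITGB4 fell further in atria (difference 1.42, adjusted p = 0.0044). LAMA1, a laminin chain, had a difference of 1.22 (adjusted p = 0.0355) that lost the call without any of 7 libraries, with adjusted p-values of 0.0541 to 0.0858.

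Collagens were called at 3 of 36 (8.33%), all more negative in SAN. COL8A1, a short-chain collagen of vessel and endothelial matrix, rose in SAN from 1.90, 1.63, 1.03 and 0.37 to 3.00, 3.02, 2.48 and 3.22 and in atria from -0.58, -1.64, -1.01 and 0.29 to 5.14, 4.70, 3.97 and 4.22. Atria went from below SAN to above it (difference -3.54, SE 0.51, adjusted p = 4.66e-05). COL8A2, its partner chain, had a difference of -1.14 (adjusted p = 0.00384), or -0.946 without atria t0 replicate 2. COL20A1 had -1.67 (adjusted p = 0.0239), which was -0.50 with a pseudocount of 1 and lost the call, at -1.58 to -1.34, without SAN vehicle replicate 1, atria t0 replicate 3 or atria vehicle replicate 1. Matrix proteases, their inhibitors and crosslinkers were called at 8 of 41 (19.5%), 4 in each direction. VCAN, the proteoglycan versican, fell in atria from a range of 7.15 to 7.97 to one of 5.39 to 5.90 and overlapped in SAN (difference 1.54, SE 0.27, adjusted p = 0.000361). MMP17, a membrane-anchored metalloprotease, fell in atria only (difference 1.88, adjusted p = 6.75e-05). PLAU, urokinase, and HAS2, a hyaluronan synthase, were more negative in SAN, with -2.47 and -1.48 (adjusted p = 0.00493 and 0.00327).

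Actin cytoskeleton and SRF target genes were called at 4 of 30 (13.3%), 3 more positive in SAN. ACTG2, smooth muscle gamma actin, stood at 2.83, 1.25, 2.26 and 2.19 in fresh SAN and 4.36, 4.56, 3.23 and 2.62 after culture, and at 5.39 to 5.86 and 4.90 to 5.33 in atria. The SAN groups overlapped and stayed below atria (difference 2.17, SE 0.45, adjusted p = 0.00211). LMOD1, a leiomodin of smooth muscle, fell in atria only, with a difference of 1.10 (adjusted p = 0.00231), or 0.998 without SAN vehicle replicate 1. FHL2, a LIM domain protein of heart muscle, moved oppositely, with a log2FC of -0.63 in SAN and 0.42 in atria. Its difference of -1.05 (adjusted p = 0.00198) fell short of the limit, at -0.989 to -0.933, without SAN vehicle replicate 1 or 3, atria t0 replicate 2 or atria vehicle replicate 2. Among 7 smooth muscle and pericyte markers 4 were called (57.1%, against 4.79% of all genes), ACTG2 and LMOD1 more positive and RGS5 and MYOCD more negative in SAN. ACTG2 and LMOD1 are the same genes as those counted in the actin and SRF list. In the list of cadherins, claudins and desmosomal genes 5 of 46 were called (10.9%), 3 more positive in SAN. CDH3, P-cadherin, fell by 0.99 in SAN and by 2.61 in atria (difference 1.62, adjusted p = 5.44e-06), and CLDN11 rose in SAN by 1.10 and fell in atria by 0.51 (difference 1.61, adjusted p = 2.13e-05). PCDH10 (-1.67, adjusted p = 0.00729) and CDH17 (1.13, adjusted p = 0.0403) were -0.63 and 0.59 with a pseudocount of 1, and CDH17 also lost the call without any of 11 libraries. DSG2, a desmosomal cadherin, had -1.02 (adjusted p = 0.00288), which fell short of the limit with a pseudocount of 1, at -0.998, after quantile normalization, at -0.992, and without any of 6 libraries.

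In the lists of glycolysis and hypoxia, oxidative stress, and amino acid and unfolded protein response, 0 genes were counted as down in either tissue. The limits were a log2FC past 1 and an adjusted p under 0.05 from limma. In the glycolysis and hypoxia list 25 of 38 genes rose in SAN and 20 in atria, against 8.01% and 10.1% of all genes. Of the 38 genes 5 were called (13.2%). EPAS1, the hypoxia-inducible factor 2 alpha gene, moved in opposite directions, from 6.05, 6.10, 5.65 and 5.69 to 6.28, 6.57, 6.65 and 6.69 in SAN and from 7.30, 7.27, 6.87 and 7.27 to 6.26, 6.73, 6.76 and 6.20 in atria. Without overlap in either tissue, the levels of SAN and atria met (difference 1.36, SE 0.20, adjusted p = 5.3e-05). LDHA, lactate dehydrogenase A, rose by 3.75 and 2.68 (difference 1.07, adjusted p = 0.00614), and without SAN t0 replicate 2, atria t0 replicate 3 or atria vehicle replicate 3 the difference was 0.929 to 0.972. The stanniocalcins STC1 (-1.11, adjusted p = 0.0276) and STC2 (1.23, adjusted p = 0.0486) lay near the threshold and lost the call without any of 7 and of 11 libraries, with adjusted p-values up to 0.068 and 0.112.

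Of 17 oxidative stress genes 2 were called (11.8%), the neighbouring metallothionein genes MT3 and MT4 on chromosome 11, both more positive in SAN. MT3 rose in SAN from a range of 1.36 to 2.07 to one of 3.48 to 4.15 and overlapped in atria at 2.26 to 3.14 (difference 1.92, SE 0.33, adjusted p = 0.000308), and MT4 rose by 2.89 and 1.45 (difference 1.44, adjusted p = 0.0113). Among 21 lipid handling genes 4 were called (19.0%). APOA1, an apolipoprotein of high density lipoprotein that is also a liver gene, rose by 0.92 in SAN and 2.07 in atria (difference -1.15, adjusted p = 0.00148). The 5 hepatocyte markers, APOA1 among them, summed to a median of 536.7 and 966.9 in SAN and 441.1 and 1983 in atria, and their part was not tested. FABP5 (-1.31, adjusted p = 0.0453), FABP7 (1.06, adjusted p = 0.0113) and ANGPTL4 (-1.10, adjusted p = 0.0188) lost the call without any of 13, 4 and 3 libraries, with adjusted p-values up to 0.106, 0.028 and 0.0463, the last pair falling short of the limit of 1.

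KLF9, a glucocorticoid target, was the single called gene of 23 in the circadian and glucocorticoid list (4.35%, against 4.79% of all genes). It rose by 5.67 in SAN and 7.29 in atria (difference -1.62, adjusted p = 0.000241), but had -0.89 with a pseudocount of 1 and -0.68 (adjusted p = 0.116) after quantile normalization. In the amino acid and unfolded protein response list 12 of 19 genes rose in SAN and 10 in atria, against 8.01% and 10.1% of all genes. Only STC2 was called there (5.26%, near the 4.79% of all genes). No gene was called among 26 immediate early genes, 33 heat shock genes, 73 genes of the mitochondrial respiratory chain, 45 cell cycle genes and 24 genes of cholesterol and fatty acid synthesis, and at an unadjusted p under 0.05 from limma these lists had 11, 6, 3, 6 and 6 genes. Across all 12422 genes tested, 3198 passed that unadjusted limit. This was a lower share than among the immediate early genes and a higher share than in each of the other lists without a call. Of the cell cycle genes, 31 fell in SAN and 34 in atria, against 5.59% and 9.02% of all genes. Their median responses were -1.19 and -1.29.

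**Figure D5:**
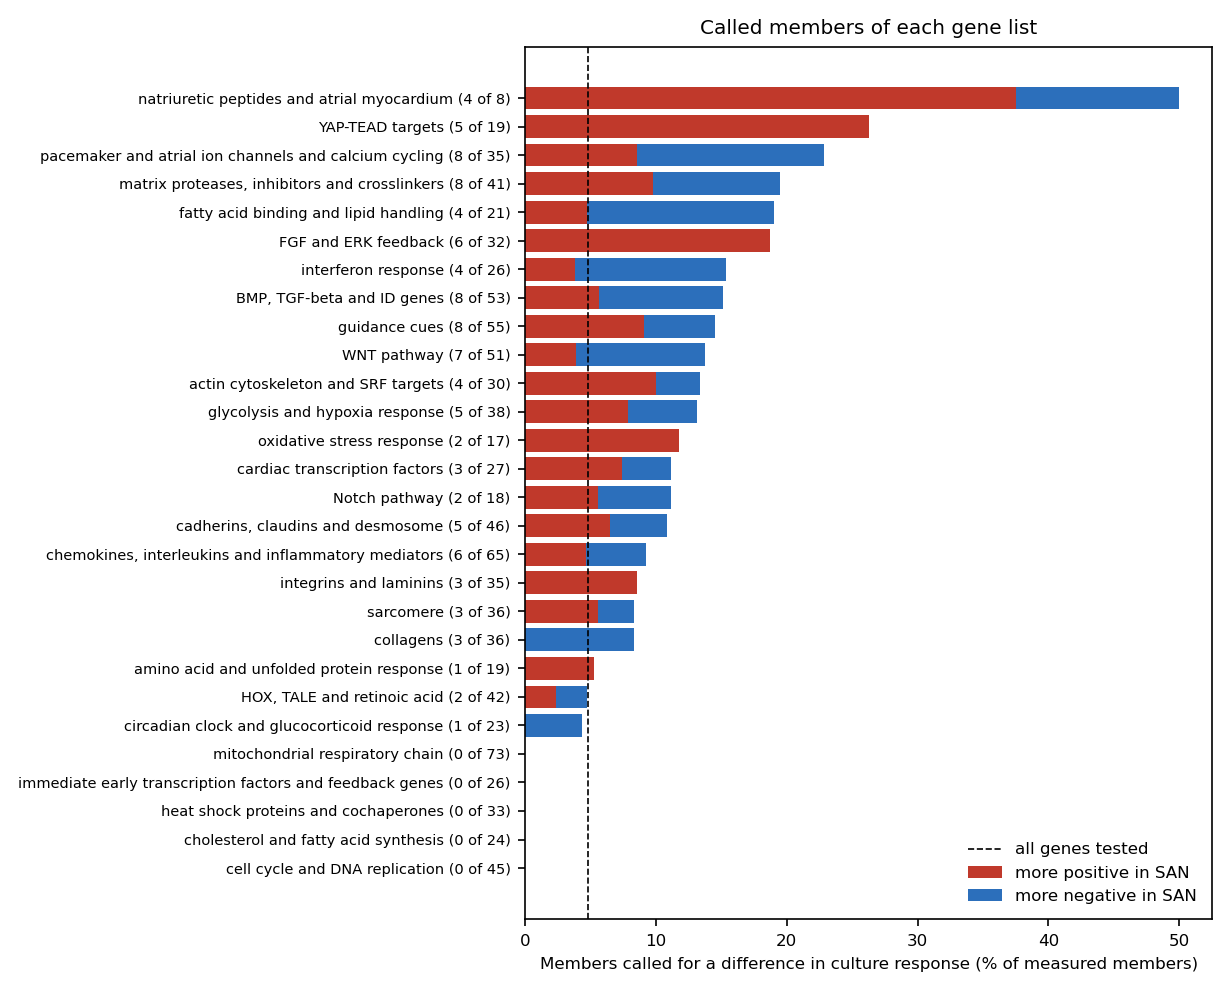
Share of the measured members of 28 gene lists (x axis, percent) called for a difference in culture response, split into more positive (red) and more negative (blue) in SAN, with called and measured genes in brackets. The dashed line marks the 4.79% of all genes tested; all 5 called YAP-TEAD targets and all 6 called FGF genes are more positive in SAN, and 5 lists have no called gene.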

How the data were processed

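The authors extracted total RNA, depleted ribosomal RNA, prepared stranded libraries, mapped the reads with kallisto, filtered genes with edgeR and tested with limma, per the labels and the study's methods. The submitters' processing notes name the build GRCg7b. The deposited values are log2 expression per gene symbol and library. Their prior count, normalization and read depth are not given in the sources used here, so no counting error was computed and precision rests on 4 pools a group. The row without a symbol (6.58% to 9.38% of each library's linear sum) was left out.

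Differences were computed from the deposited log2 values with limma 3.58.1 in R 4.3.3, as a mean for each of 6 groups over 24 libraries (18 residual degrees of freedom), moderated with a trend of variance on the mean, and p-values were adjusted by the Benjamini-Hochberg method over 12422 genes. The script recovered most planted changes in simulated data with independent noise. Those changes lay beyond the limit of 1, so smaller differences and pools that share embryos were not checked. Named genes had a highest mean of at least 2 among the t0 and vehicle groups. They were, with no overlap of t0 and vehicle in the tissues that moved, the 6 with the largest difference in each single-tissue class and direction and the 8 with the largest smaller response in each opposite direction, and, whatever the overlap, up to 4 called genes of each list, all called cardiac transcription factors, and 5 tissue check genes. CDH17, COL20A1, HOXA7, IL34, IRX1, KCND2 and WNT6 lay under that mean and were named after their values were seen, as were other genes given outside this rule. A few genes that this rule names are not reported here. Members of the comparison and the lists were chosen with earlier results of these data known. Coordinates are those of RefSeq on GRCg7b, matched by symbol for 12213 genes. Alternatives were a pseudocount of 1, a filter at a mean log2 of 1, the 16 libraries alone, quantile normalization, median centring, no trend, robust moderation, other limits on the difference, replicate blocks and each library left out. Figures were drawn with matplotlib 3.10.9.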

Additional observations from a re-analysis of the deposited data

Results flagged for a closer look

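The culture response differed between the tissues at 595 genes by the test of the difference itself. For 16 named genes with opposite responses it was 4.64 for ASB18, 3.83 for WSCD2, 3.19 for DGKI, 2.96 for NPPA, 2.68 for UPP1, 2.47 for SYP, 2.30 for SOX18 and 2.17 for FAM20C. In the reverse direction it was -3.90 for FAT2, -3.69 for TAGAP, -3.68 for STAB2, -3.15 for DLL1, -2.90 for VWC2, -2.61 for APLNR, -2.44 for NKAIN1 and -2.21 for A2M.

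In 26 of 444 sets of 4 libraries of a gene reported here, the highest or lowest library stood apart by Dixon's criterion, where about 22.2 are anticipated from chance alone. Fresh SAN replicate 4 stood apart for 5 genes: CCK (1.28), FGF12 (5.74), NEGR1 (2.95), PAPPA2 (1.24) and RBM44 (3.47). Other fresh SAN libraries did so for CDH3 (7.0, replicate 1) and for IRX1 (-0.15), SEMA3C (2.96) and SLC6A4 (4.68), all in replicate 2. In fresh atria, replicate 2 stood apart for FAM20C (3.77), KCNJ8 (3.18), MT4 (6.41) and STC2 (6.16), and replicate 3 for CCN2 (6.10), EPAS1 (6.87) and SOX18 (2.87). In cultured SAN, it was replicate 3 for CA8 (0.90), CCK (3.80) and RBPJL (3.73), replicate 2 for BGN (2.65), replicate 4 for PCDH10 (1.73) and replicate 1 for SHOX2 (8.09). In cultured atria it was ASB18 (-2.76, replicate 3), CA8 (-1.51, replicate 2), LGR5 (-0.13, replicate 4) and SYP (0.75, replicate 1).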

How the results depend on the processing

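The number of genes with a different response was 473 with a pseudocount of 1, 473 among the 11228 genes with a mean log2 of at least 1, 615 with the 16 libraries alone, 624 after quantile normalization, 596 after median centring, 592 with no trend and 595 with robust moderation. Leaving out 1 library at a time, it ranged from 553 to 610, with 518 to 559 genes shared with the 595. Ranges for the other counts were 1586 to 1727 for the SAN response, 2288 to 2442 for the atrial response, 57 to 74 for SAN only, 192 to 225 for atria only, 74 to 87 for opposite directions, 265 to 313 for more positive and 276 to 314 for more negative in SAN. The counts that moved by over 1.5 times were 137 genes in atria only with the pseudocount, 43 in SAN only with the filter, and most of those under other limits on the difference. The exceptions were the counts with no limit in SAN only (70) and in atria only (239). With no limit 1613 genes passed, 856 more positive, 757 more negative and 145 opposite. With treat 63 passed, 27 more positive, 36 more negative, 5 in SAN only, 12 in atria only and 24 opposite.

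The labels do not pair the replicate numbers, and the main fit treated the pools as unpaired. The study's methods give 5 SAN and 5 atrial preparations per pool, and whether pools of 1 number share embryos is not stated. Same-numbered pools of 2 groups deviated together with r from -0.17 to 0.551, and 16 of 24 such pairs passed 0.1. In 12 of the 24 a library correlated best with its own number. Fresh SAN and fresh atria had r of 0.112, 0.292, 0.188 and 0.496, and fresh SAN and cultured atria 0.0566, 0.551, 0.147 and 0.486. For each of these 2 pairs of groups 4 of 4 were best with their own number. A replicate block over all groups gave 635 genes and a replicate block within condition gave 631, and the blocks ended 1 call of a named gene, that of CDH17 (1.13, adjusted p = 0.062, block within condition). Of 2804 values of named genes under these settings, other limits on the difference aside, 126 lost the call. Among the values of genes called in the main fit, 0 changed direction. Of the 89 called genes with a value under all 25 settings, 70 kept the call. The filter on the mean left out 21 named genes. Of the genes reported here, the pseudocount ended the call of CDH17, COL20A1, DSG2, FABP5, FABP7, FSTL3, HOXA7, IL34, IRX1, KLF9, NPPC, PCDH10, RGS4 and WNT6. Limits are the unknown depth, which leaves differences at low log2 values dependent on the scale, and the whole-tissue pools, in which cell makeup and expression cannot be told apart.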

Other observations

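The third condition of the study, tissue kept for 14 h in CN03, which activates RhoA, at 0.25 ug/ml, was not part of the comparison, and its libraries give further levels for some of the same genes (mean log2 expression ± SD, n = 4, without a test). CCN2 stood at 10.74 ± 0.12 in CN03-treated SAN and 10.82 ± 0.15 in CN03-treated atria, where the vehicle means were 7.08 and 5.48. ETV4 stood at 6.03 ± 0.02 and 6.07 ± 0.21 and DUSP6 at 7.02 ± 0.07 and 6.85 ± 0.07, so that the tissues lay close together for these genes. CXCL14 was at -0.93 ± 0.72 in SAN and -2.43 ± 0.90 in atria, beside vehicle means of 2.71 and 4.40. NPPA was at 13.07 ± 0.42 and 14.54 ± 0.25, above vehicle means of 7.54 and 9.32 in SAN and atria.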
